A study of Mus musculus with 9 samples.

Results

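The ERBB receptors and a small set of genes that act on them were examined in LSKs, the Lin-lo Sca1+ Kit+ bone marrow fraction that holds haematopoietic stem cells and multipotent progenitors. The 7 members were found by name among the 24060 named genes of the count table and the family was chosen by the measured rise of Erbb3, which is among the genes that rise most from NHD13 to NHD13/MSI2. They are the receptors Egfr, Erbb2, Erbb3 and Erbb4, the ligands Nrg1 and Areg, and the feedback inhibitor Errfi1. A count was found in any library for 4 of the 7, and 2 of them, Erbb3 and Errfi1, passed the filter on low counts. Because Erbb3 was chosen for its rise, its values are a description and carry no test.

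The 9 RNA-seq libraries comprised 3 control, 2 NHD13 and 4 NHD13/MSI2 libraries, all on C57BL/6 and labelled with an age of 4 months. NHD13 is the NUP98-HOXD13 fusion, a transgene driven by the Vav regulatory sequences that are active across blood cells, and it serves as a model of myelodysplastic syndrome. NHD13/MSI2 adds the RNA-binding protein MSI2 as a tet-on transgene at Col1A1 with the rTTA transactivator at ROSA26. In all groups donor marrow was engrafted with CD45.1 helper cells in lethally irradiated CD45.1 recipients that were then fed doxycycline, and donor-derived CD45.2 LSKs were sorted after 3 months of induction. Control marrow was C57BL/6, and a control that carries MSI2 without NHD13 was not analysed here. The labels do not say whether each library came from a separate mouse, so p-values measure the spread between libraries, which may in part be technical.

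Library totals ran from 19242153 to 23013493 counts on named genes. Levels are given as CPM, read counts relative to library size after scaling by the trimmed mean of M-values (TMM). The counts of 3 reads taken here as the detection floor correspond to 0.120 to 0.195 CPM, which covers counting error only. Of the labelled transgenes, Hoxd13 had 0 counts in the controls and 0.648 to 1.13 CPM in the other 6 libraries. Msi2 was at 223 to 316 CPM in controls, 111 to 139 CPM in NHD13 and 77.1 to 241 CPM in NHD13/MSI2. Counts on the mouse Msi2 gene were therefore not higher in the last group, which is called the libraries labelled NHD13/MSI2. Every direction given for this group rests on the label. Whether reads of the MSI2 transgene were counted on this gene was not tested, so these levels need not reflect the transgene. Xist was high and Uty near 0 in control replicates 1 and 3 only, so the control libraries did not all share a donor and comparisons with control mix libraries of both kinds. Of the libraries labelled NHD13/MSI2, replicate 4 stood apart from replicates 1 to 3, with a correlation of 0.943 to 0.949 across genes against 0.970 to 0.973 among those 3. The LSK markers Kit, at 908 to 2254 CPM, and Ptprc, at 482 to 804 CPM, were present in all 9 libraries, and Ly6a, which encodes Sca1, was at 48.3 to 375 CPM. With Cd34, Flt3 and Cd48, the 6 LSK genes summed to 4776 to 5225 CPM in control, 2975 to 3334 in NHD13 and 2823 to 3672 in NHD13/MSI2. Cd34 was at 1566 to 1649 CPM in control and 588 to 894 CPM in NHD13/MSI2, and Flt3 at 581 to 674 and 104 to 206 CPM. Ly6a went the other way, at 79.3 to 89.8 and 98.6 to 375 CPM. Of the 6, 2 were called lower over control (edgeR), where 6.55% of all tested genes were. In NHD13 over control 1 was called lower, where 0.210% of all tested genes were.

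ERBB proteins are receptor tyrosine kinases that pair when a ligand of the EGF or neuregulin families binds. ERBB2 binds no ligand of its own and acts as a partner, and ERBB3 binds neuregulins but has a kinase of very low activity, so that it signals through a partner and recruits PI3 kinase through its phosphorylated tail. The family is best known from epithelia, heart and the Schwann cell lineage rather than from blood stem cells.

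The sequence feature that sets Erbb3 apart from its relatives lies in helix C of the kinase domain, where active kinases carry a glutamate that holds the active site. The coding strand is printed from the codon of that residue onward, with this codon in capitals, because it shows what kind of receptor the rising gene encodes. Each stretch of 45 bases lies in exon 20 of its transcript (GENCODE M21, GRCm38). The positions describe the reference genes, since the submitters' processing notes name the build mm9.
Egfr (chr11:16896894-16896938, plus strand): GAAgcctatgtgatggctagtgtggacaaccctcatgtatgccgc
Erbb2 (chr11:98433892-98433936, plus strand): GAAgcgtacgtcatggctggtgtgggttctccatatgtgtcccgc
Erbb3 (chr10:128572900-128572944, minus strand): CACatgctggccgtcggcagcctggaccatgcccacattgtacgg
Erbb4 (chr1:68198983-68199027, minus strand): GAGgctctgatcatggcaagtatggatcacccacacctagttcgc

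GAA and GAG encode glutamate, whereas the CAC of Erbb3 encodes histidine. Over these 45 bases Erbb3 was identical to Egfr at 18, to Erbb2 at 16 and to Erbb4 at 24, while Egfr and Erbb2 shared 32. The whole Erbb3 gene, read from the minus strand, covers 128567523 to 128589652 of chromosome 10 (GRCm38).

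Among the receptors, Erbb3 was the one with more than a few reads. Its counts were 142, 81 and 119 in control replicates 1 to 3. They were 58 and 16 in NHD13 replicates 1 and 2, and 704, 789, 927 and 376 in replicates 1 to 4 of the libraries labelled NHD13/MSI2. The groups did not overlap, with the labelled NHD13/MSI2 libraries highest, the controls between and the NHD13 libraries lowest.

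In CPM, Erbb3 was at 5.81, 3.84 and 4.76 in control, which gives 4.80 ± 0.98 (SD, n = 3). It was at 2.67 and 0.790 in NHD13, which gives 1.73 ± 1.33 (SD, n = 2). The 4 libraries labelled NHD13/MSI2 were at 36.4, 39.3, 41.9 and 24.4, which gives 35.5 ± 7.75 (SD, n = 4). The lowest labelled NHD13/MSI2 library was replicate 4, and the NHD13 libraries lay on either side of their mean with a spread close to the mean itself.

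**Figure D1:**
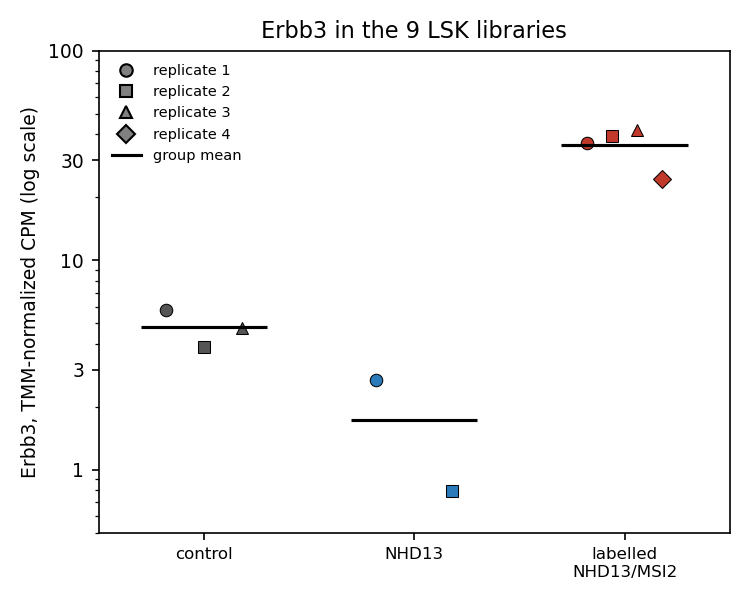
Erbb3 in TMM-normalized CPM on a log axis, 1 point per library with the marker shape giving the replicate number, and the group mean as a line. The 4 libraries labelled NHD13/MSI2 sit between 24.4 and 41.9 CPM, above the controls at 3.84 to 5.81 CPM and the NHD13 libraries at 0.790 and 2.67 CPM.

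The ratio of mean CPM was 20.5 for the libraries labelled NHD13/MSI2 over NHD13 and 7.40 over control. On the log2 scale of the edgeR fit these differences were 4.35 (standard error 0.52) and 2.88 (standard error 0.39). NHD13 was 2.78-fold below control by the means, a log2 difference of -1.47 (standard error 0.47). The 3 differences share libraries and were given by the choice of the gene, so none is read as a test. For comparison, of all 13355 tested genes 13.0% had every NHD13/MSI2 library above both NHD13 libraries, 15.3% had every NHD13/MSI2 library above all controls, and 18.5% had both NHD13 libraries below all controls.

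The NHD13 libraries set the size of the first difference. Its value was 5.51 after NHD13 replicate 1 was left out and 3.77 after NHD13 replicate 2 was, and the difference of NHD13 from control moved between -2.59 and -0.86 with the same 2 libraries left out. The difference between the libraries labelled NHD13/MSI2 and control lay between 2.75 and 3.24, the latter against control replicate 2 alone. Erbb3 ranked 4 by log2 fold change among the 76 genes called higher over NHD13 with a mean of at least 50 counts. Because Erbb3 was picked for this rise, its place in that set and its rank restate the choice and are no test.

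Relative to exon length, Erbb3 was at 0.798 CPM per kb in control, 0.287 CPM per kb in NHD13 and 5.91 CPM per kb in the libraries labelled NHD13/MSI2. On the same scale 20.2%, 10.7% and 51.8% of the tested genes with a known length stood below it. Erbb3 was thus a low gene in control and NHD13 LSKs and a gene near the middle of the range in the labelled libraries. Kit, the receptor tyrosine kinase used for the sort, was at 217, 171 and 128 CPM per kb in the 3 groups.

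Genes of other cell types also differed between the groups, in both directions, and members of a list did not always move together. The summed CPM of the 5 neutrophil genes was 2056 to 3735 in control, 3116 to 4314 in NHD13 and 8342 to 14294 in the libraries labelled NHD13/MSI2. Mpo made up most of it, at 1195 to 1862 CPM in control and 7845 to 13878 CPM in the labelled libraries. Ngp was at 425 to 1181 CPM in control and 137 to 285 CPM in the labelled libraries. Ltf was at 148 to 361 and 21.0 to 96.7 CPM and S100a8 at 134 to 415 and 12.3 to 112 CPM. Each of these was lower without overlap, as were 20.4% of all tested genes. Of the list, 1 gene was called higher over control and 0 lower (edgeR), against 4.49% and 6.55% of all tested genes. The 4 B cell genes summed to 0.569 to 9.94, 1.68 to 41.2 and 129 to 273 CPM, mostly Cd79a. Pax5 was at 0 to 0.123 CPM in control and 1.86 to 3.84 CPM in the labelled libraries, a separation that 15.3% of all tested genes showed. Ebf1 was at 0.285 to 3.43 CPM in control and 0 to 0.983 CPM in the labelled libraries. Of the B cell list, 2 genes were called higher over control and 0 lower (edgeR), against 4.49% and 6.55% of all tested genes. Over NHD13, 0 were called. The 4 endothelial genes summed to 166 to 197, 331 to 347 and 438 to 559 CPM, mostly Pecam1. Emcn went the other way, at 15.8 to 33.7 CPM in control, 27.5 and 5.93 CPM in NHD13 and 0 to 0.399 CPM in the labelled libraries. Kdr was at 0.380 to 1.60, 2.62 and 0.988, and 0 to 0.130 CPM, and Cdh5 was at 0.440 CPM at most. Of this list 1 gene was called higher and 1 lower over control, and 1 lower over NHD13 (edgeR). Of all tested genes 2.58% were called lower over NHD13.

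The 5 dendritic cell and monocyte genes, at 145 to 833, 137 to 271 and 499 to 1009 CPM, overlapped between control and the labelled libraries. Within that list Csf1r was at 9.02 to 15.5 CPM in control and 281 to 473 CPM in the labelled libraries, whereas Cd74 was highest in control replicate 1. In each comparison 1 gene of the list was called higher and 0 lower (edgeR). Over all tested genes, 4.49% were called higher over control, 0.584% over NHD13 and 0.824% in NHD13 over control. Other lists were lower in the labelled libraries than in control. The 6 erythroid genes summed to 87.6 to 199 CPM in control, 23.9 and 9.68 CPM in NHD13 and 0.898 to 14.5 CPM in the labelled libraries. The 4 megakaryocyte genes summed to 67.2 to 147, 533 and 73.3, and 7.98 to 34.3 CPM in the same order. Pf4 was at 290 CPM in NHD13 replicate 1 and 16.2 CPM in replicate 2. The 5 mast cell and basophil genes summed to 17.2 to 67.8, 8.51 and 17.8, and 4.22 to 9.95 CPM. In these lists 2, 1 and 2 genes were called lower over control (edgeR), against 6.55% of all tested genes. Over NHD13, 1 megakaryocyte gene was called lower, against 2.58%. In a bulk library a change in the number of cells of a type cannot be told apart from a change in RNA per cell, and the part of these genes in the Erbb3 difference was not tested.

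Lineages best known for ERBB3 were looked at in the same way. Sox10, the defining factor of Schwann cells and melanocytes, had 0 counts in all 9 libraries. Mitf, of the same list but also expressed in blood cells, was at 8.42 to 9.68 CPM in control and 11.4 and 11.5 CPM in NHD13. It was at 10.7 to 20.8 CPM in the libraries labelled NHD13/MSI2. Every labelled library was thus above every control in Mitf, a separation that 15.3% of all tested genes showed. The list summed to 11.3 to 15.8, 15.1 to 15.6 and 12.2 to 22.2 CPM, which overlapped. Its part in the Erbb3 difference was not tested.

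Epcam, an epithelial adhesion molecule, was at 1.66 CPM at most. The 4 epithelial genes summed to 69.0 to 87.1 CPM in control, 40.9 to 44.5 CPM in NHD13 and 5.06 to 16.4 CPM in the labelled libraries. The members differed in direction. Krt18 was at 68.4 to 86.1 CPM in control, 7.26 and 12.4 CPM in NHD13 and 0.362 to 1.43 CPM in the labelled libraries. Cdh1, which encodes E-cadherin, was at 0 to 0.286 CPM in control, 30.4 and 33.3 CPM in NHD13 and 3.05 to 14.98 CPM in the labelled libraries. Of the epithelial list, 1 gene was called higher and 1 lower over control (edgeR), against 4.49% and 6.55% of all tested genes. Over NHD13, 1 was called lower, against 2.58%. In NHD13 over control 1 was called higher and 1 lower, against 0.824% and 0.210%.

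The other 3 receptors were absent or close to it. Egfr, the receptor of EGF, and Erbb4, the second neuregulin receptor, had 0 counts in each of the 9 libraries, which allows up to 3 counts per library and, over the 188261534 counts of all libraries, 0.0159 CPM. Erbb2, the partner without a ligand, had 1, 1 and 0 counts in control, 7 and 0 in NHD13 and 0, 0, 0 and 7 in the libraries labelled NHD13/MSI2. Its reads thus came mainly from 1 library in each transgenic group, and the groups overlapped. Exons of Erbb2 overlap those of Mien1 on the opposite strand, and the sources used here do not say whether strand was used in counting. Erbb2 failed the filter on low counts, and in a fit without that filter its adjusted p was 0.948 for NHD13/MSI2 over NHD13, 0.611 over control and 0.803 for NHD13 over control (edgeR's quasi-likelihood test, Benjamini-Hochberg adjusted).

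The pair of ligands among the members had few reads. Areg, the EGFR ligand amphiregulin, had 0 counts in all 9 libraries. Nrg1, the neuregulin that binds ERBB3 and ERBB4, had 9, 13 and 10 counts in control, 0 and 0 in NHD13 and 0, 10, 0 and 0 in the libraries labelled NHD13/MSI2. Every control library and replicate 2 of the labelled group held Nrg1 reads, while the 5 remaining libraries held none. Against the floor of 3 counts per library, Nrg1 was at least 3.23-fold lower in NHD13 than in control. It was not tested after the filter, and without the filter this comparison had an unadjusted p of 0.0416 and an adjusted p of 0.404 (edgeR's quasi-likelihood test).

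**Figure D2:**
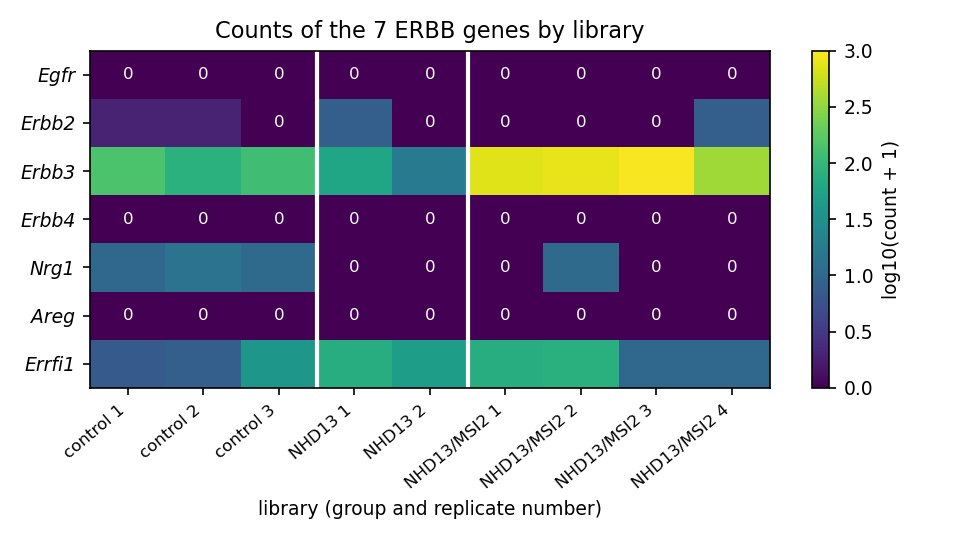
Counts of the 7 members in the 9 libraries, coloured by log10(count + 1), with cells at 0 marked and white lines between the groups. Egfr, Erbb4 and Areg are at 0 throughout, Erbb2 and Nrg1 reach at most 7 and 13 counts, and Erbb3 runs from 16 to 927 counts.

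Errfi1 encodes MIG6, a cytoplasmic protein that binds and inhibits ERBB kinases and is induced by their signalling. Its counts were 6, 7 and 38 in control, 72 and 46 in NHD13, and 73, 80, 9 and 9 in the libraries labelled NHD13/MSI2. Replicates 1 and 2 of the labelled group stood near NHD13 replicate 1, and replicates 3 and 4 near control replicates 1 and 2, although all 4 were high in Erbb3. In CPM the means were 0.699 ± 0.712 (SD, n = 3), 2.79 ± 0.735 (SD, n = 2) and 2.19 ± 1.96 (SD, n = 4).

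In the quasi-likelihood test of edgeR, Errfi1 had a log2 difference of -0.35 (standard error 1.02, adjusted p = 0.889) for NHD13/MSI2 over NHD13, 1.63 (standard error 0.97, adjusted p = 0.283) over control and 1.98 (standard error 1.09, adjusted p = 0.518) for NHD13 over control. Both NHD13 libraries were above all controls in Errfi1, a separation that 18.9% of all tested genes showed. None of these passed the threshold of 0.01, and the standard errors of about 1 on the log2 scale leave room for changes of several fold. Errfi1 was the 1 member other than Erbb3 that passed the filter. Of the 6 other members, 0 were thus called in any of the 3 comparisons by edgeR or DESeq2, and 0 had an unadjusted p under 0.05 after the filter. Over all 13355 tested genes, 3.17% were called in NHD13/MSI2 over NHD13, 11.0% in NHD13/MSI2 over control and 1.03% in NHD13 over control.

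The rest of the pathway was described through a list of 61 genes in 5 roles, of which 55 passed the filter. Between the libraries labelled NHD13/MSI2 and NHD13, 0 rose and 1 fell (1.82% of the 55, against 0.584% higher and 2.58% lower over all genes). Between the labelled libraries and control, 2 rose and 3 fell (9.09%, against 4.49% higher and 6.55% lower over all genes). Between NHD13 and control 1 rose (1.82%, against 0.824% of all genes called higher) and 0 fell (0.210% over all genes). An unadjusted p under 0.05 was reached by 14, 17 and 7 of the 55 genes in these 3 comparisons, which is 25.5%, 30.9% and 12.7% against 21.7%, 32.8% and 13.5% of all tested genes.

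The median log2 difference of the 55 genes was -0.020 in NHD13/MSI2 over NHD13, where that of all tested genes was -0.028. It was -0.040 against -0.011 in NHD13/MSI2 over control and -0.013 against 0.017 in NHD13 over control.

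**Figure D3:**
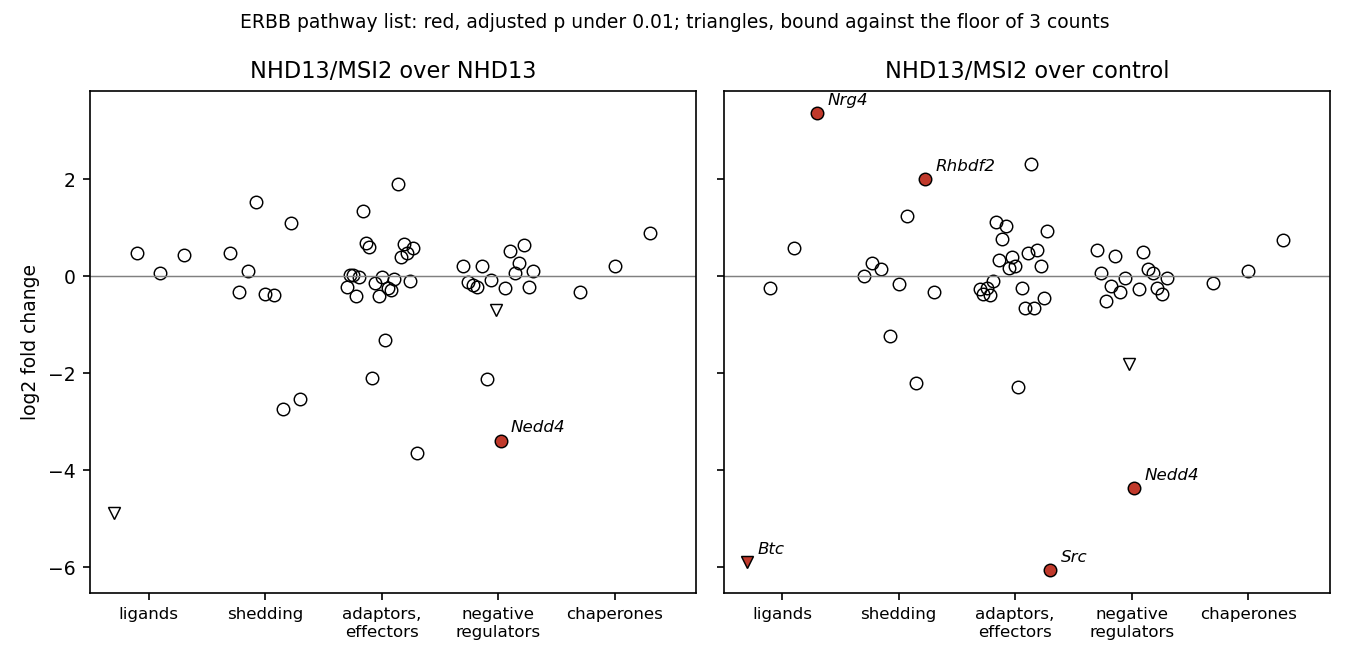
Log2 fold change of the 55 tested pathway genes by role, for NHD13/MSI2 over NHD13 (left) and over control (right), with called genes in red and named. Triangles are bounds for genes at 0 counts in every labelled NHD13/MSI2 library. The called genes are Nedd4 on the left and Nrg4, Rhbdf2, Btc, Nedd4 and Src on the right. Genes that were not called also lie away from 0. Among them are Btc (bound of -4.87) and Src (-3.65) on the left and Pik3r3 (2.31) and Pik3cb (-2.29) on the right.

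Of the 9 further ligands, Ereg, Epgn and Nrg3 had 0 counts in all 9 libraries, and Tgfa and Nrg2 had too few to be tested. Epgn, Ereg and Areg lie in the same stretch of chromosome 5 as Btc (91027464 to 91402994, GRCm38), and of these 4 genes Btc was the one with reads. Betacellulin, the product of Btc, binds EGFR and ERBB4. Btc was at 13.1, 4.32 and 11.0 CPM in control and at 8.42 and 0.889 CPM in NHD13, and it had 0 counts in all 4 libraries labelled NHD13/MSI2. Every control and NHD13 library was thus above every labelled NHD13/MSI2 library, a separation that 16.9% of all tested genes showed against NHD13 and 20.4% against control.

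Against the floor of 3 counts per library, Btc was at least 59.6-fold lower in the labelled libraries than in control, with an adjusted p of 0.0034 (edgeR's quasi-likelihood test). This call was lost without control replicate 1 or control replicate 3 and reached an adjusted p of 0.0812 without both. The bound against NHD13 was 29.3-fold, with an adjusted p of 0.0137 that did not pass the threshold in the same test. The bound was 53.0-fold from NHD13 replicate 1 alone and 5.60-fold from replicate 2 alone. The comparison passed with DESeq2 (adjusted p = 1.7e-08), without the filter (adjusted p = 0.0059) and without NHD13 replicate 2 (adjusted p = 0.0055), and its adjusted p was 0.0763 at most over 17 fits.

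Nrg4, a neuregulin that binds ERBB4, rose in both transgenic groups. Its CPM were 9.77, 3.89 and 8.04 in control, 56.8 and 53.6 in NHD13 and 84.7, 64.2, 78.4 and 69.8 in the libraries labelled NHD13/MSI2. All 6 transgenic libraries stood well above the controls, whereas the distance between the transgenic groups was small beside it. Of all tested genes, 18.9% had both NHD13 libraries above all controls and 15.3% had every labelled library above them.

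The log2 difference of Nrg4 was 2.93 (standard error 0.32, adjusted p = 0.0017) for NHD13 over control and 3.36 (standard error 0.30, adjusted p = 0.00013) for NHD13/MSI2 over control in edgeR's quasi-likelihood test. For NHD13/MSI2 over NHD13 it was 0.43 (standard error 0.30, adjusted p = 0.471). The NHD13 call was lost without control replicate 3 and when only these 2 groups were fitted (adjusted p = 0.0158). Exons of Nrg4 overlap those of Fbxo22 on the opposite strand, and without strand their reads cannot be told apart. Fbxo22 was at 91.4 to 98.0 CPM in control, 105 and 136 CPM in NHD13 and 136 to 177 CPM in the labelled libraries, and its log2 difference for NHD13/MSI2 over control was 0.75 (adjusted p = 0.0066, edgeR).

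The remaining tested ligands, Egf and Hbegf, did not pass the threshold in any comparison. Egf was at 3.80 to 5.93 CPM in control, 2.44 and 3.66 CPM in NHD13 and 2.47 to 6.33 CPM in the libraries labelled NHD13/MSI2. Hbegf, the heparin-binding ligand of EGFR and ERBB4, was at 3.99 to 5.68, 4.05 and 10.1, and 3.67 to 14.0 CPM in the same order.

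Ligands are released from the membrane by ADAM proteases, and 9 of the 10 shedding genes were tested. Rhbdf2, which encodes iRhom2, a partner in the maturation of ADAM17, was at 6.01, 6.69 and 6.56 CPM in control and 11.5 and 12.4 CPM in NHD13. It was at 31.3, 28.1, 24.3 and 18.6 CPM in the libraries labelled NHD13/MSI2. The 3 groups followed each other without overlap, in a different order from that of Erbb3. Of all tested genes, 15.3% had every labelled library above all controls and 13.0% above both NHD13 libraries. Rhbdf2 rose over control with a log2 difference of 1.99 (standard error 0.22, adjusted p = 0.00042, edgeR), and its difference from NHD13 was 1.09 (standard error 0.25, adjusted p = 0.0271). The latter passed with DESeq2 (adjusted p = 0.00020) and without replicate 4 of the labelled group (adjusted p = 0.0052), and its adjusted p was 0.147 at most over 17 fits. Against control replicate 2 alone its adjusted p was 0.0477.

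Adam17 itself was at 114 to 172 CPM over all libraries, with a log2 difference of 0.10 (adjusted p = 0.797, edgeR) for NHD13/MSI2 over NHD13. Timp3, an inhibitor of ADAM17, was at 10.7, 3.18 and 13.6 CPM in control, 56.1 and 28.3 CPM in NHD13 and 4.19, 10.9, 8.28 and 5.71 CPM in the labelled libraries. Both NHD13 libraries were thus above the other 7. Of all tested genes, 16.9% had every labelled library below both NHD13 libraries and 18.9% had both NHD13 libraries above all controls. The log2 difference of NHD13/MSI2 from NHD13 in Timp3 was -2.54 (standard error 0.54, adjusted p = 0.0208), short of the threshold in edgeR's test and past it in DESeq2's. Rhbdf1, of the same shedding list as Rhbdf2, had log2 differences of -2.73 from NHD13 and -2.20 from control, and neither was called (edgeR). Timp3 and Rhbdf1 were named after their values were seen.

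**Figure D4:**
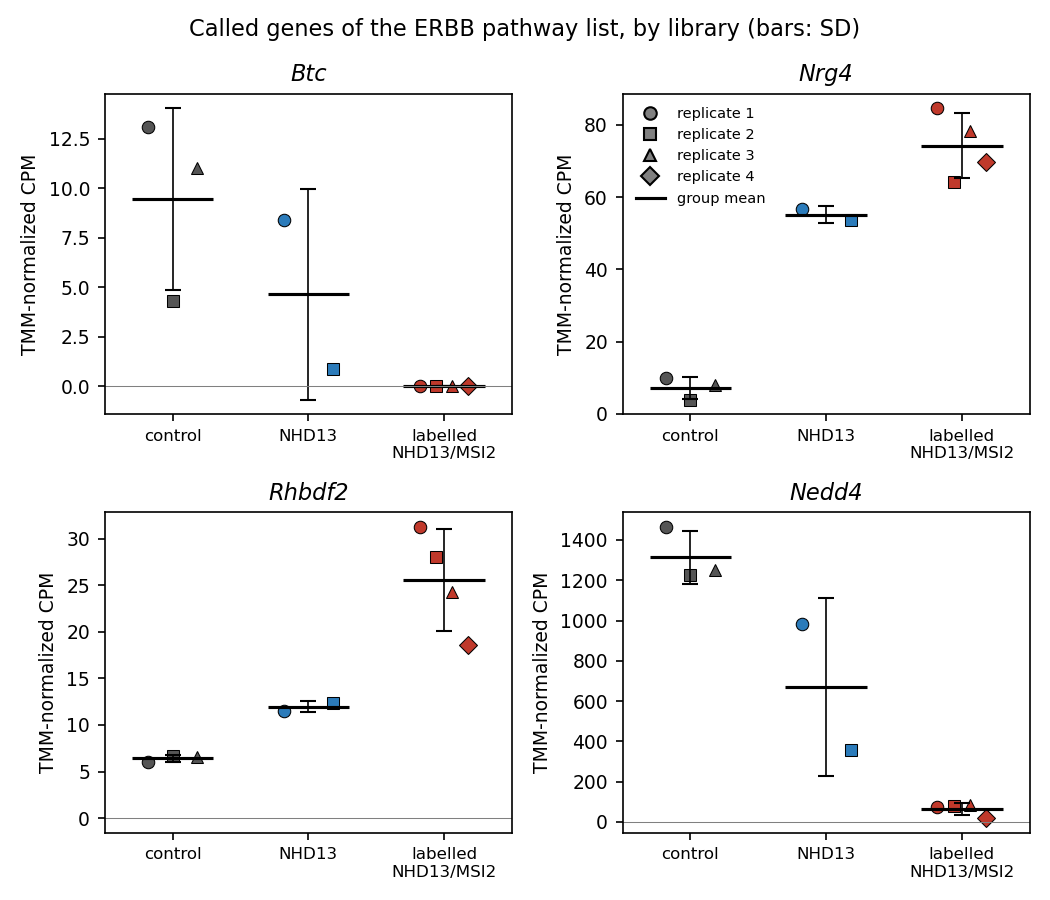
Btc, Nrg4, Rhbdf2 and Nedd4 in TMM-normalized CPM by library, with marker shapes for the replicate number, lines for group means and bars for the SD. In the libraries labelled NHD13/MSI2 Btc is at 0, Nrg4 at 64.2 to 84.7 CPM, Rhbdf2 at 18.6 to 31.3 CPM and Nedd4 at 18.6 to 83.1 CPM.

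All 23 adaptor and effector genes passed the filter, and 1 was called by edgeR, in NHD13/MSI2 over control. DESeq2 also called Plcg2 higher over NHD13 and over control, and Pik3cb and Pik3r1 lower over control. Gab1 was called higher over control when only these 2 groups were fitted. In the main fit the log2 differences from control were 0.54 for Plcg2, 1.11 for Gab1 and -2.29 for Pik3cb. Plcg2, Gab1 and Pik3cb were named after their values were seen. Src, which encodes a membrane-bound tyrosine kinase, was at 1.27, 1.38 and 1.12 CPM in control, 0.460 and 0 CPM in NHD13, and 0.0517, 0, 0 and 0 CPM in the libraries labelled NHD13/MSI2. The labelled group held 1 Src read in all against 88 in control. Its adjusted p was 0.0097 in edgeR's test, and the call was lost in 10 of the alternatives, with an adjusted p of 0.152 at most.

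The adaptors that link ERBB receptors to RAS and PI3 kinase were expressed in every library. Shc1 was at 57.5 to 85.9 CPM, Grb2 at 34.3 to 131 CPM and Pik3ca at 48.8 to 105 CPM. Pik3r1, the regulatory subunit that docks on the ERBB3 tail, was at 154, 133 and 133 CPM in control, 125 and 90.2 CPM in NHD13 and 95.3, 89.2, 95.2 and 74.6 CPM in the labelled libraries. Its log2 difference from control was -0.66 (standard error 0.16, adjusted p = 0.0148, edgeR), which did not pass. These 4 genes were named after their values were seen.

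All 16 genes of negative regulation and turnover were tested, and Nedd4 was called in 2 comparisons. NEDD4 is a ubiquitin ligase with ERBB3 and ERBB4 among its reported substrates. Nedd4 was at 1467, 1225 and 1252 CPM in control, 982 and 358 CPM in NHD13 and 72.1, 81.3, 83.1 and 18.6 CPM in the libraries labelled NHD13/MSI2. The groups did not overlap, and replicate 4 of the labelled group was the lowest library. Of all tested genes, 20.4% had every labelled library below all controls and 16.9% below both NHD13 libraries.

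Nedd4 fell by 4.36 on the log2 scale against control (standard error 0.53, adjusted p = 0.00059) and by 3.39 against NHD13 (standard error 0.54, adjusted p = 0.0061) in edgeR's quasi-likelihood test. The call against NHD13 was lost when only these 2 groups were fitted and without any of control replicates 1 to 3, NHD13 replicate 1 or replicates 1 to 3 of the labelled group, with adjusted p up to 0.0534. The log2 difference from NHD13 was -2.47 without NHD13 replicate 1 and -3.91 without NHD13 replicate 2. The call against control was lost against control replicate 2 alone, with an adjusted p of 0.0240. Nedd4 showed no call between NHD13 and control (log2 difference -0.97, adjusted p = 0.585).

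Rnf41, which encodes NRDP1, the ubiquitin ligase that sets the level of ERBB3 protein, was at 72.5, 62.5 and 66.9 CPM in control, 59.2 and 74.4 CPM in NHD13 and 103, 86.7, 94.7 and 96.4 CPM in the labelled libraries. Its log2 difference from control was 0.50 (standard error 0.13, adjusted p = 0.0264, edgeR), which did not pass the threshold of 0.01. Lrig3, of a family of membrane proteins in which LRIG1 lowers ERBB levels, had 39 reads in the controls together, 11 in NHD13 and 0 in the labelled libraries. Of the HSP90 chaperone genes and Cdc37, which keep kinases such as ERBB2 folded, 0 of 3 were called in any comparison by edgeR or DESeq2, and 0 had an unadjusted p under 0.05. Rnf41 and Lrig3 were named after their values were seen.

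The genes beside Erbb3 on chromosome 10 were examined to see whether the difference extended along the chromosome. Of 10 annotated neighbours, 5 on each side, 8 were tested, and 0 were called in NHD13/MSI2 over NHD13 by edgeR, with 2 at an unadjusted p under 0.05, while DESeq2 called 1. Of all tested genes 3.17% were called there. In NHD13/MSI2 over control 1 of the 8, Ikzf4, was called, with 3 at an unadjusted p under 0.05, where 11.0% of all tested genes were called. The microRNA genes Mir6916 and Mir6917, the latter inside Erbb3, had 0 counts throughout. The nearest gene, Pa2g4, lies 1.59 kb away and encodes EBP1, a protein named for its binding to ERBB3. Pa2g4 was at 529 to 689 CPM in control, 510 and 687 CPM in NHD13 and 246 to 626 CPM in the labelled libraries, with a log2 difference of -0.25 (standard error 0.34, adjusted p = 0.733) from NHD13.

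Ikzf4, 41.2 kb from Erbb3, went the opposite way. This Ikaros family factor was at 3.76, 0.380 and 4.04 CPM in control, 5.24 and 4.35 CPM in NHD13 and 0, 0.0997, 0.181 and 0 CPM in the libraries labelled NHD13/MSI2. Its log2 difference was -5.08 from control (standard error 1.05, adjusted p = 0.0080) and -5.89 from NHD13 (standard error 1.10, adjusted p = 0.0117, edgeR), so the second missed the threshold. The 7 other tested neighbours had log2 differences from NHD13 of -0.25 to 0.50.

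**Figure D5:**
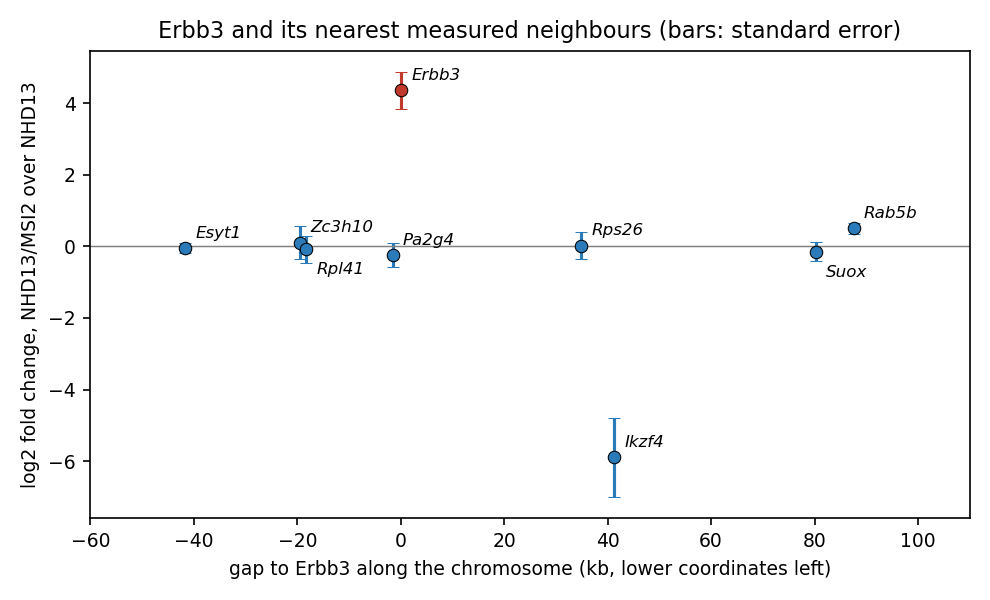
Log2 fold change of NHD13/MSI2 over NHD13 with its standard error for Erbb3 and its 8 tested neighbours, by the gap to Erbb3 in kb. Erbb3 stands at 4.35 and Ikzf4 at -5.89, and the other 7 genes lie between -0.25 and 0.50.

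The genes whose levels were most like those of Erbb3 were ranked by Pearson's correlation of log2 CPM over the 9 libraries, among 10971 genes with a mean of at least 50 counts. The first 5 were Tfec (r = 0.975), Trappc5 (r = 0.971), Hmgxb4 (r = 0.968), Dync2li1 (r = 0.966) and Lsr (r = 0.965). In total 65 genes (0.592%) reached a correlation of 0.9. The 9 points fall into the 3 groups, so these values describe a shared group pattern, and the first 5 changed with the libraries used: 0 to 4 of them remained when single libraries were left out.

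Tfec, a transcription factor of the MITF family, was at 32.0 to 43.2 CPM in control, 13.6 and 39.4 CPM in NHD13 and 93.9 to 129 CPM in the libraries labelled NHD13/MSI2. Lsr, the lipolysis-stimulated lipoprotein receptor, was at 1.38 to 1.84, 1.04 and 1.56, and 8.70 to 14.7 CPM in the same order. The mean of Lsr was 8.82-fold and that of Tfec 4.00-fold higher in the labelled libraries than in NHD13, against 20.5-fold for Erbb3.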

How the data were processed

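LSK RNA was sequenced by the submitters, whose processing notes name STAR, HTSeq, DESeq and the build mm9. The authors deposited a table of raw counts, 1 row per gene symbol and 1 column per library, without pooling. Names after the March genes stood 2 rows above their counts, which Xist, Uty, Mpo, Ptprc and Vim show, so 11942 names were moved down 2 rows and 13 unnamed rows (0.0253% to 0.0323% of a library) were left out. Samples were grouped by their labels. In R 4.3.3, edgeR 4.0.16 (filterByExpr by group, TMM, quasi-likelihood test, all 9 libraries, Benjamini-Hochberg adjustment over 13355 genes, threshold 0.01) gave each comparison. Library pairs within groups differed beyond counting noise (chi-square per gene 17.6 to 390).

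Positions and sequences are from GENCODE M21 and neighbours from RefSeq, both on GRCm38. Genes named were the 7 members, the ligands, called pathway genes, the neighbours of Erbb3, the 5 genes most like Erbb3, and Msi2 and Hoxd13. Members and lists were chosen with earlier results of these data known. Alternatives were DESeq2 1.42.0, RLE factors, no filter, a minimum mean of 50 counts, a threshold of 0.05, fits of 2 groups, a replicate block, the names as deposited, a rank correlation, a prior count of 0.5 and each library left out. Control replicates 1 and 3 were left out together after the data had been seen.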

Additional observations from a re-analysis of the deposited data

Results flagged for a closer look

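In 29 genes (members, tested ligands, called pathway genes, neighbours and the genes most like Erbb3), the 4 libraries labelled NHD13/MSI2 were examined for a lone library far from the other 3, which chance alone flags in about 1 of 20 groups. Nedd4 was at 18.6 CPM in replicate 4 against 72.1 to 83.1 CPM in the others. Zc3h10, a neighbour of Erbb3, was at 4.80 CPM in replicate 4 against 18.4 to 20.2 CPM. Erbb2 was at 0.454 CPM in replicate 4, Nrg1 at 0.499 CPM in replicate 2 and Src at 0.0517 CPM in replicate 1, with 0 in the other 3 libraries for each of these 3 genes. For Src this is a single read. With 0 in the other libraries, any read in 1 library meets this rule. The rate of 1 of 20 therefore does not apply to these 3 genes.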

How the results depend on the processing

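Erbb3 kept its direction in each comparison over 17 fits, and 0 of the other 6 members were called under any. Of those 6, Egfr, Erbb4 and Areg had 0 counts throughout and could not be called. Erbb2 entered 1 of the 17 fits, Nrg1 4 and Errfi1 16. The count of pathway genes called moved more. For NHD13/MSI2 over NHD13, 1 gene became 5 with DESeq2, 2 without a filter, 6 at an adjusted p under 0.05, 0 with only 2 groups fitted, with the names as deposited and without control replicates 1 and 3, and 0 to 3 with single libraries left out. For NHD13/MSI2 over control, 5 genes became 10 with DESeq2 and at an adjusted p under 0.05, 1 without control replicates 1 and 3, and 3 to 7 with single libraries left out. For NHD13 over control, 1 gene became 0 with only 2 groups fitted and with the names as deposited, and 0 to 1 with single libraries left out. Without control replicates 1 and 3, the Erbb3 difference from control was 3.24. Of the neighbours of Erbb3, 0 became 1 with DESeq2, without a filter and at an adjusted p under 0.05. Of the 5 genes most like Erbb3, 1 remained by rank correlation and 0 to 4 with single libraries left out. The cause was not tested. Correlations of deviations ran from -0.072 to 0.194 for same-numbered libraries of different groups and from -0.194 to 0.153 for differently numbered ones. The deviations of the 2 NHD13 libraries mirror each other, so this check cannot settle whether replicate numbers pair the libraries. With a replicate block the pathway counts were 1, 5 and 1.

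With 2 NHD13 libraries a gene's spread was borrowed from all groups. A gene at 0 counts is known only to lie under 3 counts a library.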
